A study of Drosophila melanogaster with 2 samples.

Results

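The genes whose symbol starts with Vha encode the subunits of the vacuolar proton pump (V-ATPase) of Drosophila melanogaster. The dm6 annotation holds 33 protein-coding genes of this kind among 13968 protein-coding genes in all, and each was searched for binding of the zinc-finger protein Kah. The 18 genes of the membrane part V0 were Vha100-1 to Vha100-5 (subunit a), Vha16-1 to Vha16-5 (c), VhaPPA1-1 and VhaPPA1-2 (c''), VhaAC39-1 and VhaAC39-2 (d), and VhaM9.7-a to VhaM9.7-d (e). The 13 genes of the cytosolic part V1 were Vha68-1 to Vha68-3 (A), Vha55 (B), Vha44 (C), Vha36-1 to Vha36-3 (D), Vha26 (E), Vha14-1 and Vha14-2 (F), Vha13 (G) and VhaSFD (H). The other 2, VhaAC45 and VhaAC45RP, are accessory proteins. All members were chosen by name and not by any measured value, though with earlier results of these data known.

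The data were ChIP-seq peak lists from 1 group of 2 biological replicates of whole embryos, aged 0 to 16 h and of mixed sex. The embryos came from a stable transgenic line with GFP fused to the C-terminus of Kah, also known as CG17181 and a member of the Snail family. Neither the promoter that drives the fusion nor the tissues that carry it were stated in the labels. The antibody label reads kah and the assay label names a transcription factor ChIP, although a free-text line of the labels calls the libraries input controls. Both libraries were treated here as the Kah ChIP, which is how the deposited file listing uses them. There was no second genotype, treatment or stage, so no test between conditions was possible, and differences among genes are given as descriptions with no p-value. A pool of whole embryos cannot tell weak binding in all cells from strong binding in few. RNA was not measured, so the embryo label could not be checked against marker genes.

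The V-ATPase is a rotary machine. Its V1 part splits ATP in the cytosol, where subunits A and B form the catalytic head, and this turns a ring of c and c'' subunits in the membrane that carries protons past subunit a. The pump acidifies lysosomes, endosomes and secretory vesicles in every cell, and in insect epithelia such as the Malpighian tubule it also sits in the plasma membrane and powers ion transport. The fly has several genes for many of the subunits. One set of 13 isoforms, here called the broad isoforms, was taken as the epithelial set from general knowledge of the published work: Vha100-2, Vha16-1, VhaPPA1-1, VhaM9.7-b, VhaAC39-1, Vha68-2, Vha55, Vha44, Vha36-1, Vha26, Vha14-1, Vha13 and VhaSFD. The remaining 18 paralogs of V0 and V1 are called the other paralogs.

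The sequences around Kah summits at Vha promoters are shown for the 6 letters CAGGTG. This is the core of the E-box that Snail-family proteins are known to bind. It was held by 5 of the 8 summits that passed the authors' reproducibility threshold, beside 9.7% of all promoter summits that passed it. Each line gives 101 bases centred on a summit of the pooled list, read from the Release 6 (dm6) genome on the coding strand of the Vha gene, 5′ to 3′. Capitals mark matches to the searched motifs on either strand. The first is the strongest Vha summit (chr3R:18399604-18399704, minus strand), with CAGGTG on the opposite strand within its capitals. The next 2 are weaker summits with CAGGTG, at Vha36-3 (chrX:2580552-2580652, minus strand) and VhaM9.7-b (chr3L:21539501-21539601, plus strand). VhaM9.7-c (chr3L:4186832-4186932, minus strand) passed the threshold with AACAGG and without CAGGTG. VhaSFD (chr2L:16727796-16727896, minus strand) did not pass and held TATCGATA and GTCACA.
Vha100-2: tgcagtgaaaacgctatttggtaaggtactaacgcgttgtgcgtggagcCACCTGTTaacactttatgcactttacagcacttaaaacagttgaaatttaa
Vha36-3: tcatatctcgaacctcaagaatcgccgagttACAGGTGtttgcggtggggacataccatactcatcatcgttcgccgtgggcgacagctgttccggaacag
VhaM9.7-b: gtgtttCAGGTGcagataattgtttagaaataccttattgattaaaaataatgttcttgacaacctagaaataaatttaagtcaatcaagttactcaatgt
VhaM9.7-c: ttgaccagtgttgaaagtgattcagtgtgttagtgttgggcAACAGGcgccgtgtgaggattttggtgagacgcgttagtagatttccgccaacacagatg
VhaSFD: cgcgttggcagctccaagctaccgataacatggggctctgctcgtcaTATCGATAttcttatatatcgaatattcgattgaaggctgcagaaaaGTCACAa

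Candidate peaks were listed at most Vha promoters, but few of them passed the threshold. A promoter was taken as 500 bp to either side of the transcription start site (TSS) of any protein-coding transcript, and a peak was placed by its summit. The authors' lists of candidates for the irreproducible discovery rate (IDR) procedure held 30000 peaks for each replicate and 30000 for both replicates pooled. The pooled list was deposited as peaks and background together, with a lowest signal of 34.1 and a median of 58.1. The lowest signals were 18.9 in replicate 1 and 20.3 in replicate 2. A listed candidate, above all one near these lowest values, may therefore be background and is not by itself evidence of binding. The IDR list held 4105 peaks, which were exactly the 4105 of highest signal in the pooled list, from 149.7 upwards, with the next candidate at 149.6. In the pooled list 25 of the 33 Vha genes had a promoter candidate, or 75.8%, beside 53.4% of all protein-coding genes. A summit of the IDR list lay at the promoter of 7 Vha genes, or 21.2%, beside 17.0% of all genes. Among genes with a pooled candidate these 7 were 7 of 25, beside 31.8% of all genes. The IDR shares of the Vha genes were thus near those of the genome, and the order turned with promoters of 250 bp (12.1% of Vha genes, 13.4% of all genes). Signals are the peak caller's own values on an unstated scale, so levels are compared only within a list.

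**Figure D1:**
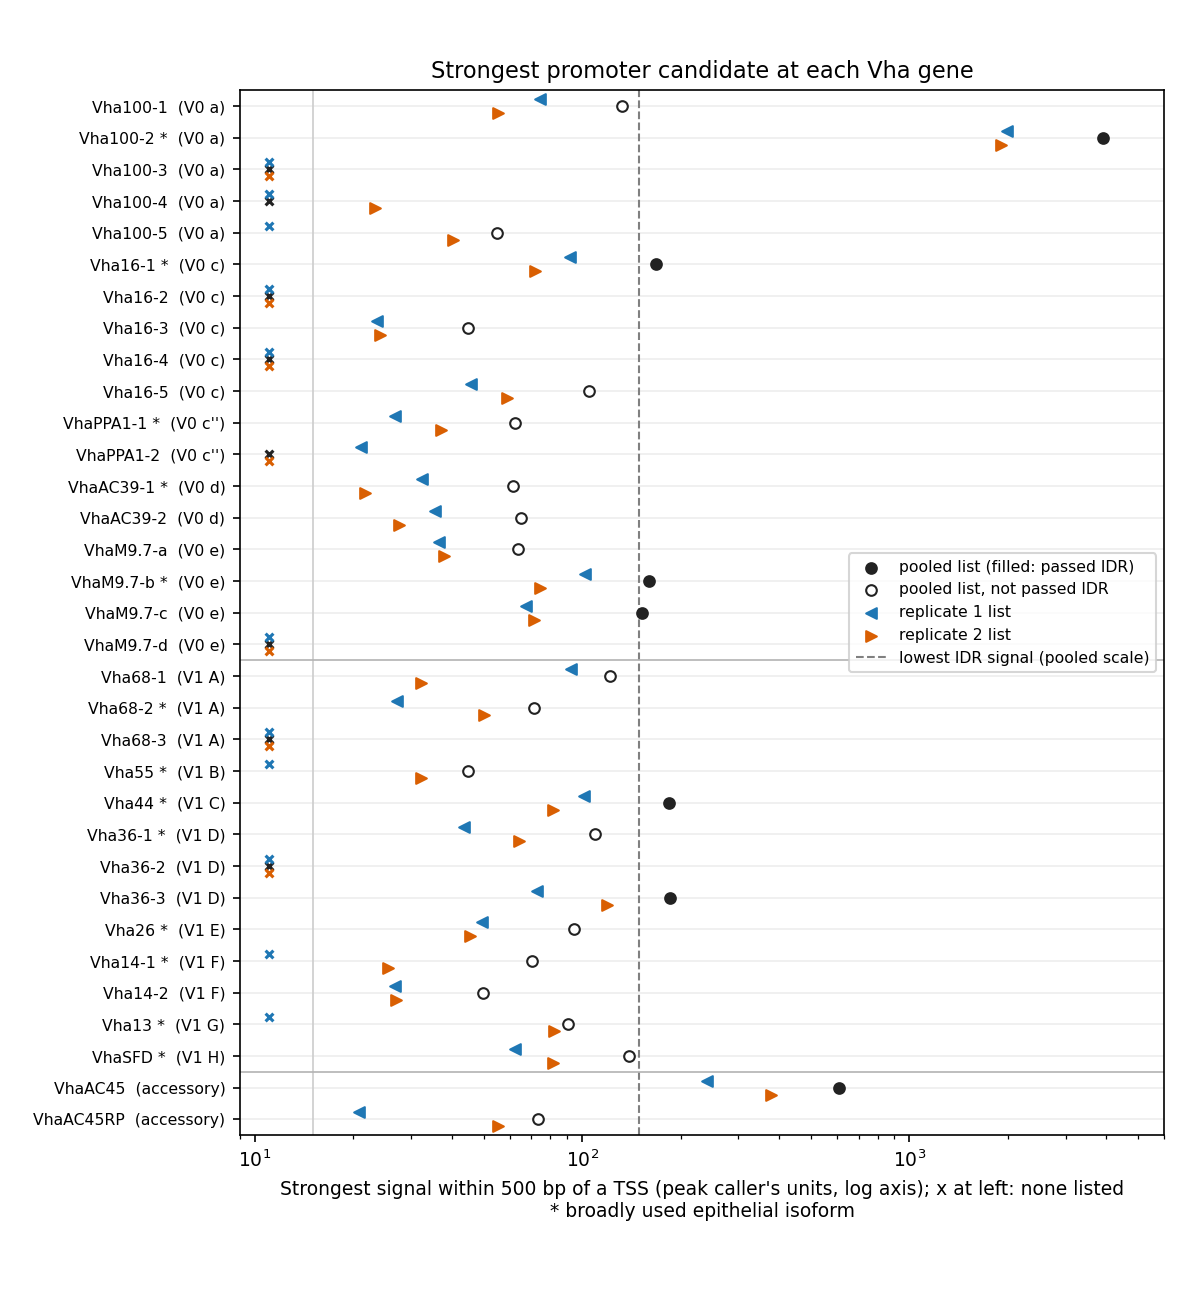
Strongest signal within 500 bp of a TSS for each of the 33 Vha genes in the pooled list (circles, filled where the peak passed IDR), in replicate 1 and in replicate 2 (triangles), on a log axis in the caller's units; a cross at the left means none listed and an asterisk marks a broad isoform. Vha100-2 stood far above the others at 3898 in the pooled list, followed by VhaAC45 at 611, and the remaining genes with IDR summits lay between 153 and 185.

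Among V0 genes, Vha100-2 had by far the strongest summit. Vha100-2 (FBgn0028670) encodes subunit a of the epithelial pump and lies on chromosome 3R from 18390323 to 18399169, minus strand. Its strongest summit at 18399654 had a pooled signal of 3898, rank 5 of the IDR list, with 1987 in replicate 1 and 1901 in replicate 2. Only 5 of the 7461 genes with a pooled promoter candidate had a signal at or above it, Vha100-2 and Vti1b included. The replicates were nearly equal here, and the log2 ratio of replicate 2 to replicate 1 was within 1 SD of its median over matched IDR summits.

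The summit of Vha100-2 lay in a promoter shared with Vti1b, which encodes a SNARE protein of membrane fusion and is read in the opposite direction. It was 485 bp upstream of the Vha100-2 TSS and 55 bp from a Vti1b TSS, in an intron of Vti1b. The word CAGGTG was centred 1.5 bp from the summit, and it overlapped the word ACAGGT as well as the word AACAGG there. A further IDR summit at 18397221 lay 293 bp upstream of the internal TSS of Vha100-2 and in a 5′ UTR of Vti1b. Its signal was 296 in the pooled list, 194 in replicate 1 and 102 in replicate 2, so the first replicate was the higher. It held none of the searched motifs. With a promoter of 250 bp in place of 500 bp, no IDR summit remained at a promoter of Vha100-2. Both summits still lay within 250 bp of a Vti1b TSS, and both were nearer to Vti1b than to Vha100-2 by TSS.

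**Figure D2:**
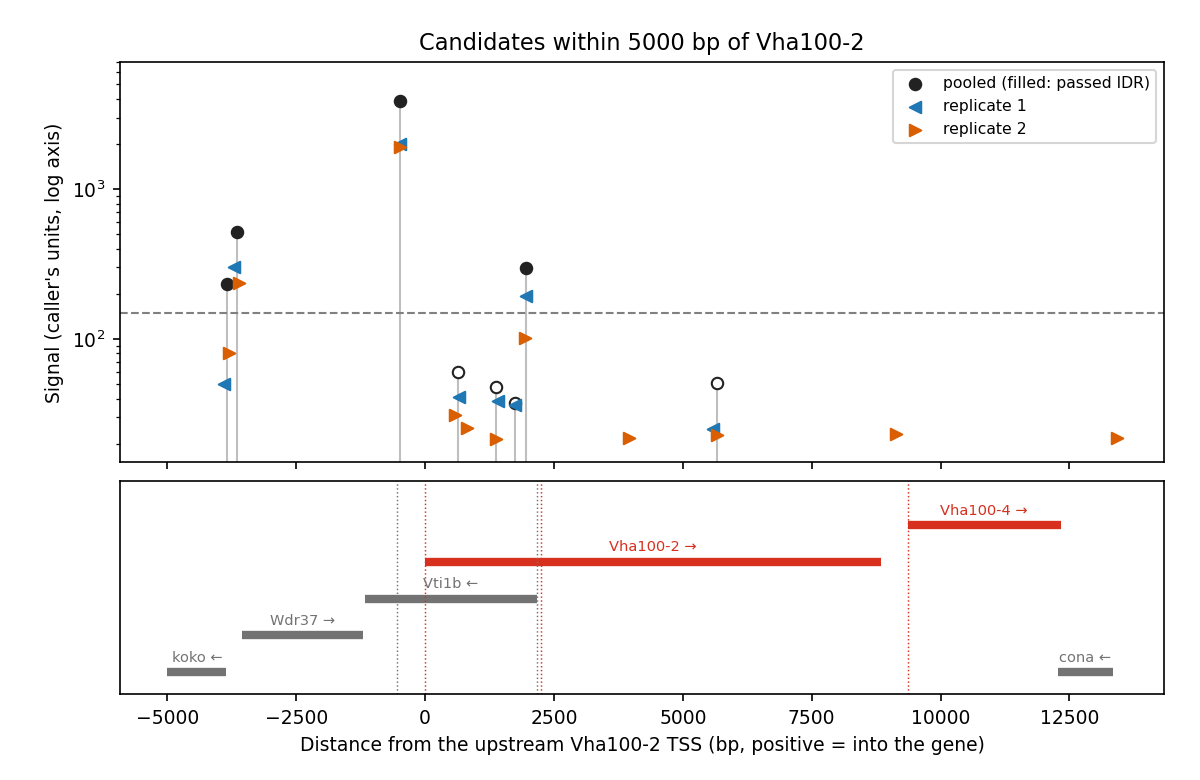
Candidates within 5000 bp of Vha100-2 by list (upper panel, signal in the caller's units on a log axis) above the genes and their reading directions (lower panel, dotted lines at the TSSs of Vha100-2, Vha100-4 and Vti1b), by distance in bp from the upstream Vha100-2 TSS. The peak of 3898 sits 485 bp upstream of that TSS and 55 bp from a Vti1b TSS, and no pooled candidate stands at Vha100-4.

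Of the other V0 genes, 3 had IDR summits at their promoters, all close to the threshold. Vha16-1 (FBgn0262736), the c subunit of the proton-carrying ring, had its summit on chromosome 2R at 6633148, 58 bp upstream of a TSS and in intergenic sequence. The signal was 168 in the pooled list, 92.0 in replicate 1 and 72.0 in replicate 2, and CAGGTG lay 22.5 bp from the summit. No other gene shared this promoter. A weaker pooled candidate of 108, with 50.2 and 69.7 in replicates 1 and 2, stood at the internal TSS of Vha16-1 and did not pass IDR.

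The small membrane subunit e accounted for the other two V0 genes. VhaM9.7-b (FBgn0028663) had a summit on 3L at 21539551 with a pooled signal of 161 and 102 in replicate 1, and no candidate of replicate 2 within 100 bp. It was the only one of the 8 IDR summits without a match in both replicate lists. A neighbouring candidate 110 bp upstream of the TSS had 145 in the pooled list, 59.3 in replicate 1 and 74.4 in replicate 2, just below the threshold. COX8, a subunit of cytochrome c oxidase, shared the promoter, and its TSS was nearer to the IDR summit (104 bp) than that of VhaM9.7-b (311 bp). VhaM9.7-c (FBgn0028664) had 153 in the pooled list, 67.3 in replicate 1 and 71.3 in replicate 2 at 3L 4186882, 17 bp upstream of its TSS. That site lay within introns of CG18675 and Teh2, and the replicates were nearly equal.

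In V1, 2 genes had an IDR summit at the promoter. Vha36-3 (FBgn0040377), a paralog of subunit D of the central shaft, had a signal of 185 in the pooled list, 72.5 in replicate 1 and 119 in replicate 2 at X 2580602. This summit was 42 bp upstream of the TSS, with CAGGTG 15.5 bp away, and was shared with AANATL7, an acetyltransferase-like gene. Vha44 (FBgn0287825), subunit C, which joins V1 to V0, had 184 in the pooled list, 101.5 in replicate 1 and 81.7 in replicate 2 at 2R 16336767. It was 130 bp upstream of the Vha44 TSS but 7 bp from that of Hmgs, the HMG-CoA synthase gene, in the 5′ UTR of Hmgs, and held none of the searched motifs. The replicates stood in opposite order at these 2 genes.

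The accessory protein gene VhaAC45 (FBgn0262515), whose product is known to be bound to V0, had the second strongest summit of the set. It lay on 2R at 9207839, with 611 in the pooled list, 241 in replicate 1 and 377 in replicate 2, rank 369 of the IDR list. Unlike the other IDR summits at Vha promoters it was downstream of the TSS, by 278 bp, in a coding exon of VhaAC45. The word CAGGTG stood 11.5 bp from the summit, again overlapped by the word ACAGGT as well as the word AACAGG, and no other gene shared this summit. The related gene VhaAC45RP had a pooled candidate of 73.1 that did not pass, with 20.8 in replicate 1 and 55.2 in replicate 2. ATP6AP2, formerly VhaM8.9 and also a pump-associated protein, is not a Vha gene by its current name, and had 1 promoter candidate of 48.1 that did not pass.

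Most Vha promoters held candidates below the threshold. The closest were VhaM9.7-b's second candidate at 145, VhaSFD at 139 and Vha100-1 at 133, while the lowest that passed was VhaM9.7-c at 153. VhaSFD encodes the regulatory subunit H, and its candidate 20 bp upstream of the TSS had 62.3 in replicate 1 and 81.5 in replicate 2. Vha100-1, the a subunit of neurons, had 74.1 and 55.4 in replicates 1 and 2 at a summit shared with dgt6, a gene of the augmin complex. These values on either side of the threshold did not form separate classes.

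Other V1 genes below the threshold covered a range of pooled signals. Vha68-1, a paralog of catalytic subunit A, had 122 in the pooled list but 92.2 in replicate 1 against 32.2 in replicate 2, at a promoter shared with mTor, the growth kinase that is active at the lysosome. Vha36-1 (D) had 109, Vha26 (E, peripheral stalk) 94.3, Vha13 (G, peripheral stalk) 90.2, Vha68-2 (A) 71.3, Vha14-1 (F, central shaft) 70.1, Vha14-2 (F) 49.6 and Vha55 (B, the catalytic head) 44.8 in the pooled list. The B subunit, encoded by a single gene, thus had nearly the lowest of the listed signals. The remaining V0 candidates had pooled signals of 105 at Vha16-5 (c), 65.2 at VhaAC39-2 (d, which links V1 to the ring), 63.6 at VhaM9.7-a (e), 62.4 at VhaPPA1-1 (c''), 61.4 at VhaAC39-1 (d), 54.9 at Vha100-5 (a) and 44.7 at Vha16-3 (c). The 8 genes with no pooled promoter candidate were Vha100-3, Vha100-4, Vha16-2, Vha16-4, VhaPPA1-2, VhaM9.7-d, Vha36-2 and Vha68-3, none of them a broad isoform. Of these, Vha100-4 had a candidate of 23.2 in replicate 2 and VhaPPA1-2 one of 21.1 in replicate 1, and the other 6 had none in either replicate list.

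**Figure D3:**
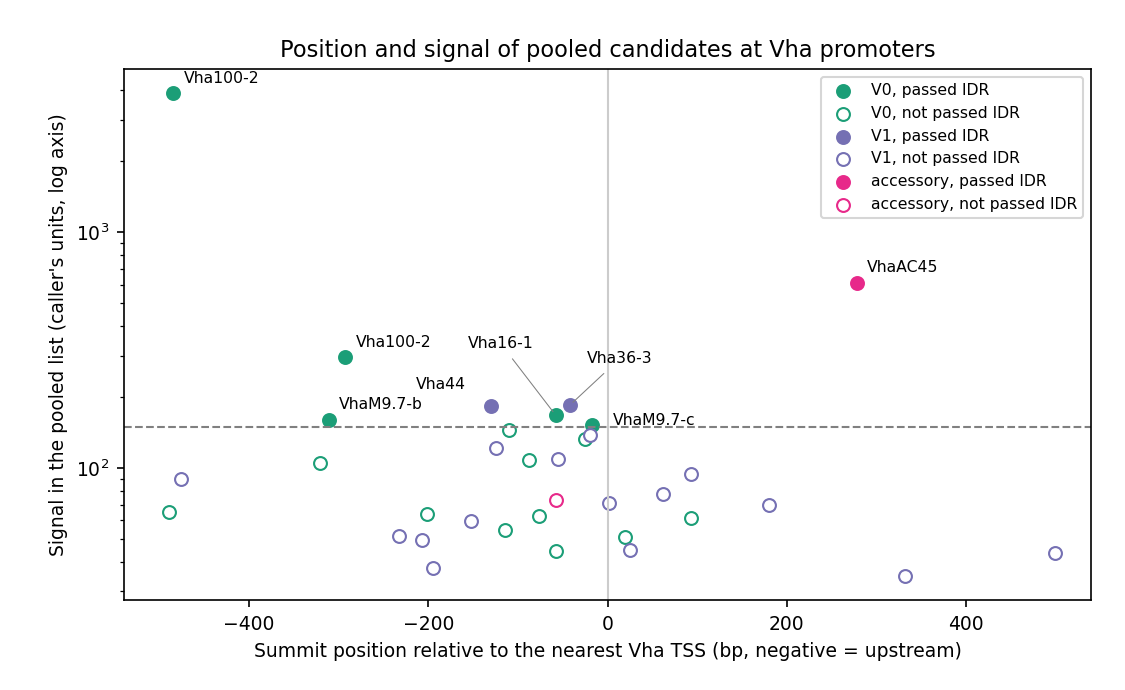
Position of the 35 pooled candidates at Vha promoters relative to the nearest Vha TSS (bp, negative is upstream) against pooled signal (caller's units, log axis), by pump part and by whether the peak passed IDR; the dashed line is the lowest IDR signal. Of the 35 summits, 25 lay upstream of the TSS, and of the 8 that passed, VhaAC45 alone was downstream.

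V0 and V1 genes did not stand clearly apart. An IDR promoter summit was found at 4 of 18 V0 genes (22.2%) and 2 of 13 V1 genes (15.4%), beside 17.0% of all genes. Pooled promoter candidates were present at 12 of 18 V0 genes (66.7%) and 11 of 13 V1 genes (84.6%), beside 53.4% of all genes. The median of the strongest pooled signal, with genes without a candidate placed lowest, was 61.9 for V0, 90.2 for V1 and 39.7 over all protein-coding genes. In replicate 1 these medians were 29.6 for V0, 27.2 for V1 and 20.5 for all genes, and in replicate 2 they were 32.3, 45.4 and 23.5. The order of V0 and V1 thus differed between the replicates, and the difference was not tested.

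The broad isoforms and the other paralogs differed more. The broad set includes Vha55, Vha44, Vha26, Vha13 and VhaSFD, each the only gene of its subunit. These genes have no counterpart among the other paralogs, so the comparison is not one within subunits. All 13 broad isoforms had a pooled promoter candidate, against 10 of 18 other paralogs (55.6%). The other paralogs were therefore near the 53.4% of all genes. In the list of replicate 2, 13 of 13 broad isoforms and 11 of 18 other paralogs had a promoter candidate, beside 53.5% of all genes. In that of replicate 1 the counts were 10 of 13 and 10 of 18, beside 52.2%, so the gap was narrower there. IDR summits were at 4 of 13 broad isoforms (30.8%) and 2 of 18 other paralogs (11.1%), beside 17.0%. The median strongest pooled signal was 94.3 for the broad isoforms and 47.2 for the other paralogs, with unlisted genes lowest. The difference was not tested. It rests on isoform sets written from general knowledge of published work on the pump, which no file used here could check.

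Gene structure moved with this difference. More than 1 TSS was annotated at 5 of the 13 broad isoforms and 3 of the 18 other paralogs, and over all genes a pooled promoter candidate was found at 76.6% of those with more than 1 TSS and 45.1% of those with 1. Among Vha genes with 1 TSS, all 8 broad isoforms and 7 of 15 other paralogs had a pooled candidate. An IDR summit was at 1 of these 8 broad isoforms and 1 of the 15 other paralogs, beside 12.3% of all genes with 1 TSS. With 1 gene in each class, these counts cannot show whether the gap in IDR summits holds among genes with 1 TSS. Another gene's TSS lay within 500 bp at 7 of 13 broad isoforms (53.8%) and 5 of 18 other paralogs (27.8%), beside 30.8% of all genes. The part of neighbouring genes in the result was not tested.

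**Figure D4:**
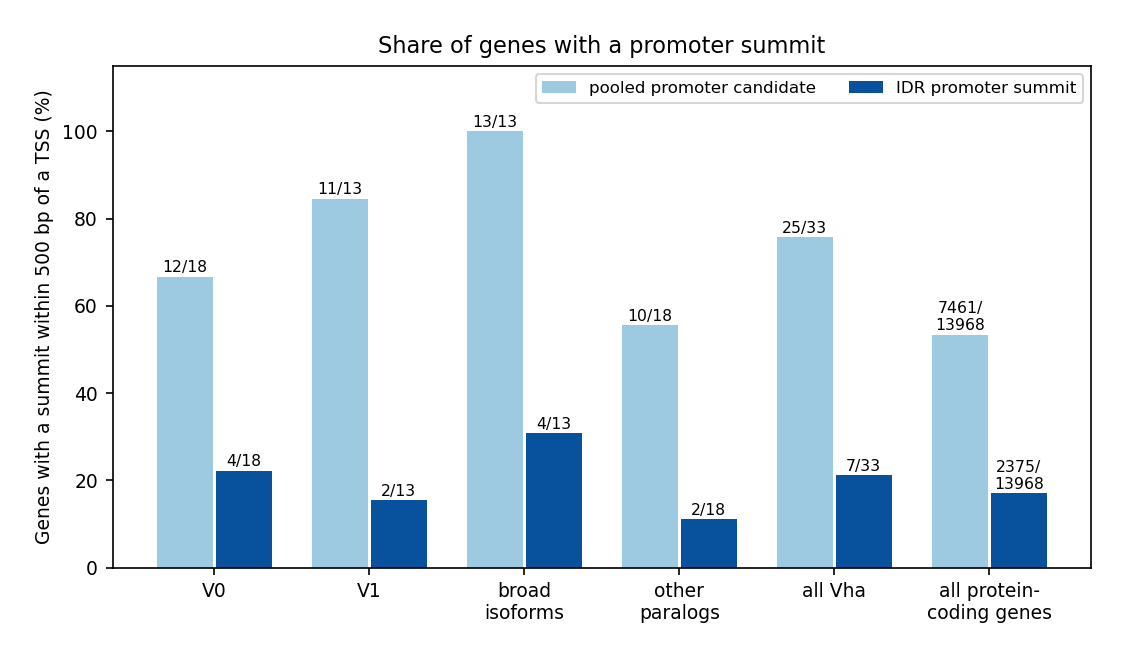
Share of genes (%) with a summit within 500 bp of a TSS in the pooled candidate list (light bars) and the IDR list (dark bars) for V0, V1, broad isoforms, other paralogs, all Vha genes and all protein-coding genes, with counts above the bars. Pooled candidates were at 13 of 13 broad isoforms and 10 of 18 other paralogs, and the IDR shares ranged from 11.1% to 30.8% around the 17.0% of all genes.

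Within a subunit, the broad isoform often but not always carried the strongest candidate. It did so for 5 of the 8 subunits with more than 1 gene in the pooled list, namely a, c, c'', e and F. In replicate 1 it did for 4 of the 8 subunits and in replicate 2 for 5 of 8, with a, c, c'' and e in both. Subunit F went the other way in both replicates, with Vha14-2 at 26.8 and 27.1 in replicates 1 and 2. Vha14-1 was unlisted in replicate 1 and had 25.5 in replicate 2, so the values there were almost equal. All of these were near the lowest listed signals of 18.9 in replicate 1 and 20.3 in replicate 2. For subunit D the paralog Vha36-3 (185) exceeded Vha36-1 (109) in the pooled list, and for subunit d VhaAC39-2 (65.2) exceeded VhaAC39-1 (61.4) by little. For subunit A, Vha68-1 was highest in replicate 1 and Vha68-2 in replicate 2.

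In 4 pairs of close neighbours on the chromosome, both paralogs of the same subunit, 1 gene alone had a pooled promoter candidate. Vha100-4 starts 517 bp from the end of Vha100-2 and had no pooled promoter candidate, beside 3898 at Vha100-2. Vha68-3 lies 178 bp from Vha68-2 and had none, beside 71.3. VhaPPA1-2 lies 2052 bp from VhaPPA1-1 and had none, beside 62.4, and Vha16-2 lies 985 bp from Vha16-3 and had none, beside 44.7. In the first 3 of these pairs the gene with the candidate was the broad isoform.

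Some Vha promoters were shared with a neighbour on the opposite strand. Another protein-coding gene had a TSS within 500 bp of 5 of the 8 IDR summits and of 17 of the 35 pooled summits. Both IDR summits of Vha100-2 are among the 5. Counted once per summit, the shares over all genes were 28.5% of 2072 IDR promoter summits and 22.7% of pooled promoter summits. These shares are not a like baseline, since a summit near 2 genes had 2 chances of lying at a Vha gene. By gene, another gene's TSS lay within 500 bp at 13 of 33 Vha genes (39.4%), beside 30.8% of all genes. All 12 neighbours at the shared Vha summits were on the opposite strand to the Vha gene, and 10 lay apart from it. Vti1b overlapped Vha100-2 by 2175 bp and Hmgs overlapped Vha44 by 548 bp. The neighbours included genes of nuclear pores (Nup58), splicing (noi) and endosomal sorting (Snx3). At Vti1b, Hmgs and COX8 the summit was nearer to the neighbour's TSS, and at AANATL7 nearer to that of Vha36-3. A peak list cannot say which of the genes in such a pair, if either, responds to Kah.

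Signal in both replicate lists was found for most Vha candidates. The strongest pooled promoter candidate had a match within 100 bp in both lists for 18 of 33 Vha genes (54.5%), beside 35.1% of all genes. Among genes with a pooled promoter candidate this was 18 of 25, near the 65.8% of all such genes. By part it was 8 of 18 V0 genes and 8 of 13 V1 genes. Of the 35 summits, 22 were matched in both lists, 5 in replicate 1 alone and 8 in replicate 2 alone. Over 3902 matched IDR summits of the genome the median log2 ratio of replicate 2 to replicate 1 was 0.07 (SD 0.57), and 3 of the 7 matched Vha IDR summits were more than 1 SD from it. These were Vha36-3 and VhaAC45 on the side of replicate 2 and the weaker Vha100-2 summit on that of replicate 1. The share of all matched IDR summits beyond 1 SD was not counted, so 3 of 7 cannot be called unusual. Vha68-1, at -2.78 SD from the median, was the least balanced of the 22 summits matched in both lists. Its pooled signal of 122 did not pass IDR, whereas the median and SD come from IDR summits alone. Unmatched summits have no ratio, such as the strongest of Vha13, with 77.3 in replicate 1 and no match in replicate 2. That replicate 1 summit lay just beyond 500 bp from the TSS, so Vha13 counted as having no promoter candidate in replicate 1. The other Vha13 summit, 62 bp downstream of the TSS, had 82.2 in replicate 2 and no match in replicate 1. The pooled list was called on the reads of both replicates, and the IDR list held its strongest peaks, so these matches are not an independent check of them.

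**Figure D5:**
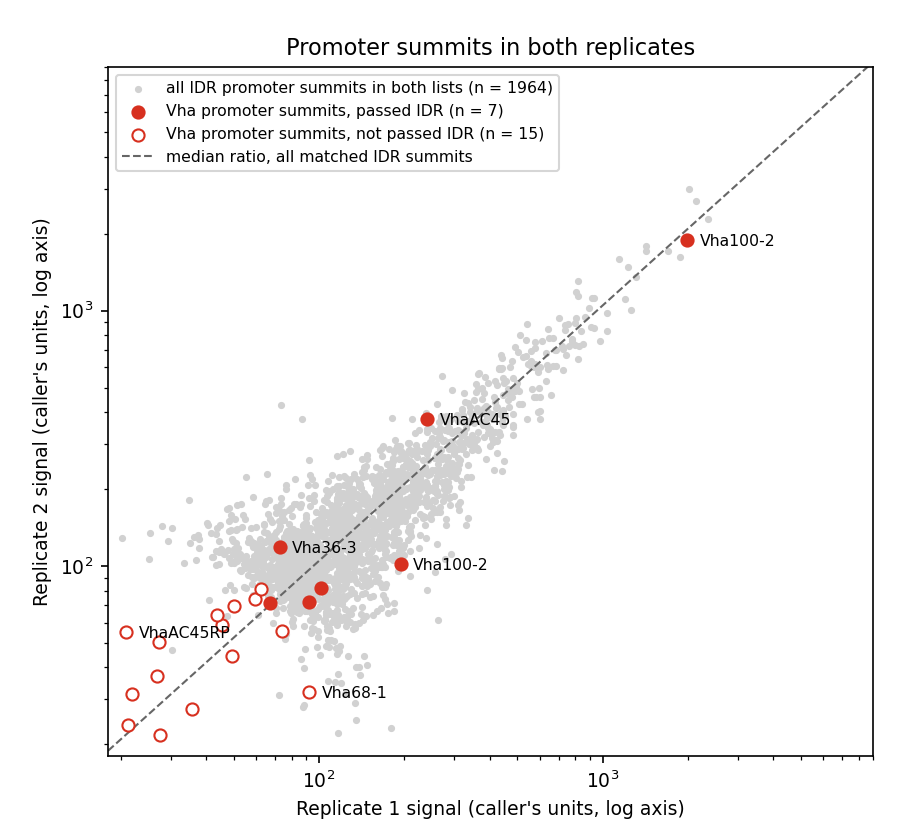
Signal in replicate 1 against replicate 2 (caller's units, both axes log) for Vha promoter summits matched in both lists (red, filled where they passed IDR, n = 7, open where not, n = 15) and for 1964 IDR promoter summits of all genes (grey); the dashed line is the median ratio of all matched IDR summits. The stronger Vha100-2 summit stands near the line at high signal, VhaAC45 lies above it with 241 in replicate 1 and 377 in replicate 2, and Vha68-1 below it with 92.2 in replicate 1 and 32.2 in replicate 2.

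The word CAGGTG stood near most of the Vha summits that passed IDR. It lay within 50 bp of 5 of the 8 IDR summits, namely at Vha100-2, Vha16-1, Vha36-3, VhaAC45 and VhaM9.7-b, beside 9.7% of all IDR promoter summits. It was found at 1 of the 27 summits that did not pass, at Vha14-1, and at 5.94% of all pooled promoter summits. The overlapping words ACAGGT and AACAGG were each at 3 of 8 IDR summits, beside 9.46% and 9.94%. In the whole 500 bp on either side of a TSS, CAGGTG was at 16 of 33 Vha genes, a share near the 43.8% of all genes. The counts at summits are small, and the difference was not tested. The median GC content of the same windows was 47.0% at Vha IDR summits and 41.6% at all IDR promoter summits, and its part in the counts was not tested.

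The other searched words were not found within 50 bp of the 8 Vha IDR summits. These were CACGTG and its longer form TCACGTGA, the E-box of the lysosome regulator Mitf, then ATCGAT and its longer form TATCGATA of the DREF element, the word GTCACA of promoter elements, the word GAGAGA, and lastly the word TATTTA. Over all IDR promoter summits their shares were 1.69% for CACGTG, 6.03% for ATCGAT, 2.56% for TATCGATA, 5.65% for GTCACA, 7.53% for the word GAGAGA and 23.4% for TATTTA, and TCACGTGA was at none, so that 0 of 8 shows little. Within 100 bp, 1 of the 8 summits held CACGTG, beside 4.39% of all IDR promoter summits, and 1 held TCACGTGA, beside 0.241%. TCACGTGA contains CACGTG, and both counts are the Vha44 summit. In the same window 1 summit held GTCACA, beside 11.2%, and 1 held TATTTA, beside 38.2%. Over all 35 pooled summits at Vha promoters, ATCGAT was at 6, beside 6.56% of all pooled promoter summits, and TATTTA at 3, beside 17.9%. GTCACA was at 2, beside 5.42%, the word GAGAGA at 2, beside 6.92%, and TATCGATA at 1, beside 2.30%. TCACGTGA stood elsewhere in the promoters of Vha16-1, Vha44 and Vha68-2, all broad isoforms, that is at 3 of 33 Vha genes beside 0.766% of all genes. It was 154 bp from the strongest Kah summit at Vha16-1, 86 bp at Vha44 and 940 bp at Vha68-2. A word match is a description of the letters and does not show a bound factor.

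Within 5000 bp of the gene body every Vha gene had a pooled candidate, beside 86.0% of all genes, and 13 of 33 (39.4%) had an IDR summit, beside 44.3%. The 6 genes added by the wider search were Vha100-5, Vha13, Vha14-1, VhaAC39-2, VhaM9.7-a and VhaSFD. Most of these summits lay at or in other genes. The summit near Vha14-1 (479 in the pooled list, 309 and 174 in replicates 1 and 2) was at the promoter of Gmppa, and that near Vha13 (449 in the pooled list, 253 and 203) in an intron of subdued. The summit near VhaSFD (371 in the pooled list, 229 and 141) was in an intron of Cyt-c-p, and the stronger one near VhaAC39-2 (424 in the pooled list, 203 and 225) in an intron of unk. By contrast, Vha16-1 had an IDR summit of 186 in its own intron, 1701 bp from a TSS, with 63.6 in replicate 1 and 119 in replicate 2. The summit near Vha100-5 (154 in the pooled list, 94.2 and 61.4) was intergenic, 2769 bp upstream, with Vha100-5 as the nearest TSS.

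Genes that act with the pump at the lysosome gave a similar picture. Of 30 genes for pump regulators, lysosomal enzymes and channels, mTor signalling and vesicle tethering, 22 had a pooled promoter candidate (73.3%, beside 53.4%) and 7 an IDR summit (23.3%, beside 17.0%). The strongest was Rab5, a GTPase of early endosomes, with 551 in the pooled list, 259 in replicate 1 and 300.4 in replicate 2. Lamtor3 and RagC-D, parts of the complex that recruits mTor to lysosomes, had 496 and 295 in the pooled list, and Vps33B, a tethering protein, had 443. The other three were spin (179), a lysosomal transporter, CtsL1 (169), a protease, and Npc1a (151), a sterol transporter. Mitf, known as an activator of V-ATPase genes in flies, had a candidate of 82.2 that did not pass. All of them were well below Vha100-2.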

How the data were processed

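The measurements were Kah ChIP-seq peak lists from 2 biological replicates of 1 group, numbered as in the labels. The deposited narrowPeak lists give a signal per peak, as the authors' caller wrote it, on an unstated scale. The −log10 q values in the deposited lists were not used, since all 4105 IDR peaks stood at the same top value. Candidates were called for each replicate, and for both pooled, against 1 shared control alignment, and IDR peaks were taken from these candidates, per the file listing among the deposited files. Chromatin was sonicated to 200 to 800 bp and the build was dm6, per the labels. Aligner, peak caller and versions: not given in the sources used here. Read depth is unknown, so no counting interval is given, and the signal tracks were not used here.

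Genes and TSSs came from Ensembl release 115 and sequence from the Release 6 assembly, and 0 listed summits lay beyond its chromosome ends. Coordinates are 1-based. Summits were assigned with Python 3.11.15, pandas 2.3.3 and numpy 2.4.6, and the assignment was tested on simulated summits. A promoter was 500 bp to either side of any protein-coding TSS. Summits within 100 bp matched. The 10 motifs were searched on both strands within 50 bp of summits, with ACAGGT and AACAGG able to overlap CAGGTG. All Vha genes are accounted for, and those with an IDR promoter summit are given in full. Of the lysosome list, 31 symbols gave 30 genes, and up to 8 with IDR summits were to be named. Members, isoform sets, gene lists and motifs were chosen with earlier results of these data known, so counts are set beside those of all genes, with no test. Alternatives were promoters of 250 bp and 1000 bp, the canonical TSS alone, the stronger part of the IDR list, other match and motif windows, and each replicate's own strongest candidates.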

Additional observations from a re-analysis of the deposited data

How the results depend on the processing

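No paired analysis was possible because all samples form 1 group. The count of Vha genes with an IDR promoter summit fell from 7 (21.2%, beside 17.0% of all genes) to 4 with promoters of 250 bp (12.1%, beside 13.4%), where Vha100-2, VhaAC45 and VhaM9.7-b dropped out, and to 2 (Vha100-2 and VhaAC45) in the stronger 2052 peaks of the IDR list (6.06%, beside 9.71%). Canonical TSSs alone gave 5 (15.2%, beside 14.6%). Taking as many of the strongest candidates from 1 replicate alone gave 4 genes without replicate 1 (12.1%, beside 17.0%: Vha100-2, Vha13, Vha36-3 and VhaAC45) and 6 without replicate 2 (18.2%, beside 17.3%). V0 went from 4 genes to 2 at 250 bp, 1 in the stronger peaks and 1 to 3 with a replicate left out. V1 went from 2 genes to 1 with canonical TSSs and 0 in the stronger peaks, and numbered 2 with either replicate left out, with 1 of the 2 genes replaced each time (Vha13 and Vha36-3 without replicate 1, Vha44 and Vha68-1 without replicate 2). Broad isoforms went from 4 to 2 at 250 bp, 2 with canonical TSSs, 1 in the stronger peaks and 2 to 4 with a replicate left out. Other paralogs went from 2 to 0 in the stronger peaks and to 1 with either replicate left out (Vha36-3 in replicate 2 alone, Vha68-1 in replicate 1 alone). Shared IDR summits went from 5 to 1 at 250 bp, 2 with canonical TSSs, 2 in the stronger peaks and 3 to 5 with a replicate left out. In the stronger peaks the lysosome list went from 7 to 4, IDR summits within 5000 bp from 13 to 7 Vha genes, and the share of all genes from 17.0% to 9.71%. The cause was not tested, other than that narrower windows and shorter lists hold fewer summits by construction. Over all main counts and settings, 55 values stayed within 1.5 times and 22 did not. Counts of pooled candidates did so in every setting tried, with 10 to 13 of the 13 broad isoforms and 8 to 11 of the 18 other paralogs. These pooled counts, and the settings for broad and other isoforms with canonical TSSs or a replicate left out, were added after seeing the data. CAGGTG was at 4 of 8 IDR summits within 25 bp, beside 5.74% of all IDR promoter summits, and at 5 of 8 within 100 bp, beside 15.1%.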
